A study of Mus musculus with 11 samples.

Results

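CC chemokines are small secreted proteins, and their receptors sit on leukocytes. The members described here are the ligands Ccl2, Ccl5, Ccl7, Ccl8, Ccl12, Ccl20 and Ccl28 and the receptors Ccr2 and Ccr6. They were chosen by symbol, as 9 of the 28692 genes counted, and were followed across tubular, stromal, endothelial and immune cells. The libraries came from dissociated kidneys of adult mice, which the study's methods give as male C57Bl/6, and were made with droplet-based 3' single-cell RNA-seq. The control group held 5 libraries of naive kidneys, labelled Ctrl, N1, N2, AN1 and AN2. The UIR group held 3 libraries after unilateral ischemia-reperfusion, in which the left renal pedicle is clamped and released. The UUO group held 3 libraries after unilateral ureteral obstruction, in which the left ureter is tied for good. Both injured groups were collected at one late time after injury, so the early response is not in these data. The comparisons ask which cells held each ligand and receptor in the normal kidney, whether the level differed after either injury, and whether it differed between the injuries.

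Chemokines bind to the matrix around the cells that secrete them, and leukocytes with the matching receptor move towards the source. Ccr2, which is carried by classical monocytes and many cells derived from them, binds Ccl2, Ccl7 and Ccl12. Ccl8 comes from the same gene cluster and in the mouse acts mainly through Ccr8. Ccl5 is made by cytotoxic lymphocytes and other cells and draws in T cells and monocytes. Ccl20 is an epithelial ligand and the only known chemokine that binds Ccr6, a receptor of B cells, regulatory T cells and IL-17-producing T cells. Ccl28 is made by epithelia of mucosal surfaces and binds Ccr3 and Ccr10. In injured kidneys the Ccl2 and Ccr2 axis is best known for drawing in monocytes.

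The annotation of GRCm38, the build of the counts, places Ccl2 (chr11:82035571-82037453), Ccl7 (chr11:82045712-82047525), Ccl12 (chr11:82101845-82103400) and Ccl8 (chr11:82115185-82116799) on the plus strand within 81.2 kb, with Ccl11 between Ccl7 and Ccl12. Ccl5 (chr11:83525778-83530518, minus strand) lies on the same chromosome, 1409 kb further on. Ccl20 is at chr1:83116766-83119167, Ccl28 at chr13:119623819-119654359, Ccr6 at chr17:8236043-8257141, and Ccr2 at chr9:124101950-124113557. The 250 bases before the annotated start are shown for Ccl20, the ligand whose UMIs in injured kidneys were almost wholly tubular, and for the neighbours Ccl12 and Ccl8, whose UMIs came mostly from macrophages. The sequences are from RefSeq on GRCm38.p6, plus strand, at chr1:83116516-83116765, chr11:82101595-82101844 and chr11:82114935-82115184. Capitals mark every match, on either strand, to one of 6 motifs.
Ccl20: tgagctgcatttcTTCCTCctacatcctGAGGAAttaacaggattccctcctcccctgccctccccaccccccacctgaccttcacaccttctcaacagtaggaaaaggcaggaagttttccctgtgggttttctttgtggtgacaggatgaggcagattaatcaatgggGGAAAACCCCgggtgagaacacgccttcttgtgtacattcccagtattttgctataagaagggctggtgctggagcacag
Ccl12: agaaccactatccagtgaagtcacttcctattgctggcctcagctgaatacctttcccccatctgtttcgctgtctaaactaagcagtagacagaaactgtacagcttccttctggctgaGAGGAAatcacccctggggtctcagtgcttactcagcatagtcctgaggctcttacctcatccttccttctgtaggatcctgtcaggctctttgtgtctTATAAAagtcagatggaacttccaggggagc
Ccl8: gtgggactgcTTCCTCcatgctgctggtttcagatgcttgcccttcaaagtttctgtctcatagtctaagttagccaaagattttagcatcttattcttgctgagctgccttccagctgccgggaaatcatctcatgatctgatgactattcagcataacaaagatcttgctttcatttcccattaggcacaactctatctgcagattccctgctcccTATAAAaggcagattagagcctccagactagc
The motifs searched were the interferon-stimulated response element core GAAANNGAA, the STAT site TTCNNNGAA, the AP-1 site (TGA and TCA with any base between them), the PU.1 core GAGGAA, the TATA box TATAAA and the NF-kB consensus, and none of the matches printed overlapped another. Counting the start site as 0, the Ccl20 window held the NF-kB match at -80 and GAGGAA at -237 and -222. The Ccl12 window held GAGGAA at -130 and TATAAA at -31, and the Ccl8 window held GAGGAA at -240 and TATAAA at -32. Over 32851 promoters of 300 bases in the same table, 4.51% held the NF-kB consensus, 28.3% GAGGAA, 13.6% TATAAA, 8.56% GAAANNGAA, 8.3% TTCNNNGAA and 7.81% the AP-1 site. A match describes the letters and is not a measured binding site.

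Total counts per library ran from 91920461 to 110914244 UMIs in control, 82522753 to 117043590 in UIR and 49503312 to 60918546 in UUO. After the filters 10275 control, 16945 UIR and 13386 UUO cells remained. Barcodes over the limit of 30% mitochondrial UMIs, which were left out, made up 57.1% to 79.0% of the called barcodes in control, 24.0% to 37.5% in UIR and 3.17% to 8.1% in UUO, and the part of this difference in the results below was not tested. Cell types were called by their markers as proximal tubule (PT), loop of Henle (LOH), distal tubule (DT), collecting duct principal (CD-P) and intercalated (CD-I) cells, failed repair tubular cells (frTEC), podocytes, endothelium, stroma, macrophages and the other leukocytes, and cells left without a type (1.7% in control, 17.3% in UIR, 14.3% in UUO), mostly because 2 lists scored too close together or the cells were dividing, are given by the leading genes of their cluster. Of the 55 pairs of libraries, none shared more than 14 cell barcodes, and none more than 0.323% of those of the smaller library. The control labels form 3 sets (Ctrl, N and AN), and the injured libraries carry no such label, so control set and injury cannot be told apart. The methods of the study give 3 mice for each injury model, but the labels tie no library to an animal, so the p-values measure the spread between libraries.

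Over all kept cells, 8 of the 9 members rose in UIR and 8 rose in UUO, while the level of Ccl28 was called lower in UUO, a call lost on leaving out any of 7 single libraries. The values are in CPM, the UMIs of a gene per 1000000 UMIs of the summed cells of a library, and the test is the quasi-likelihood test of edgeR, adjusted over every gene tested (Benjamini-Hochberg). This is to be read against a background of called genes of 61.8% in UIR and 71.4% in UUO. In such a sum, a change in the number of cells of a type and one in the RNA per cell cannot be told apart. Immune cells were 582 of the 10275 kept cells in control, 6817 of 16945 in UIR and 7625 of 13386 in UUO. The part of this difference in the changes over all cells was not tested.

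The largest rises were those of Ccl20 and Ccl8. Ccl20 was 0.0955 in Ctrl, 0.177 in N1 and 0 in N2, AN1 and AN2, against 4.23, 7.09 and 23.9 CPM in the UIR libraries and 18.6, 17.8 and 3.85 in the UUO libraries. The log2 change was 7.25 ± 1.04 (SE) in UIR and 7.40 ± 1.03 in UUO, with edgeR adjusted p of 4.11e-05 and 2.24e-05, but the control sum held only 4 Ccl20 UMIs. Ccl20 therefore passed the filter on low counts only through the injured libraries, and only a rise could be called. Ccl8 was 0.382, 0.973, 0, 0.727 and 1.34 CPM in the controls in the order given above, against 81.2, 136 and 103 in UIR and 268, 218 and 217 in UUO. No Ccl8 value of an injured library came near the control range, and all UUO libraries lay above all UIR libraries. The log2 change of Ccl8 was 6.91 ± 0.34 in UIR and 7.99 ± 0.34 in UUO (edgeR adjusted p = 1.27e-08 and 4.73e-10).

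Ccl2, Ccl7 and Ccl12, the ligands of Ccr2, also rose in both injuries. Ccl2 was 0.0477, 0, 4.48, 0.581 and 2.08 CPM in the controls, 59.1, 39.2 and 47.1 in UIR and 47.0, 44.2 and 60.0 in UUO, and all 54 Ccl2 UMIs of control N2 came from 1 cell. Ccl7 was 0 to 0.945 CPM in control, 11.3, 9.64 and 6.78 in UIR and 33.4, 25.3 and 18.2 in UUO. Ccl12 was 1.08 to 5.56 CPM in control, 22.8, 31.0 and 24.7 in UIR and 45.9, 96.0 and 74.7 in UUO. No injured library overlapped the controls for any of these ligands, with log2 changes in UIR of 4.79 ± 0.55 for Ccl2, 4.17 ± 0.52 for Ccl7 and 2.96 ± 0.37 for Ccl12. In UUO the log2 changes were 4.78 ± 0.55, 5.58 ± 0.50 and 4.35 ± 0.37. All 6 edgeR adjusted p-values were at or below 1.45e-05.

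Ccl5 and the receptors followed. Ccl5 was already present in control, at 20.6 to 36.8 CPM, and rose to 264, 216 and 362 in UIR and 609, 412 and 423 in UUO (log2 change 2.89 ± 0.21 and 3.61 ± 0.21). Ccr2 was 13.5, 13.6, 7.38, 14.0 and 14.2 CPM in the controls, 78.9, 98.1 and 100 in UIR and 148, 147 and 240 in UUO (2.49 ± 0.20 and 3.37 ± 0.20). Ccr6 was low in all groups, at 0 to 0.664 CPM in control, 1.08, 1.76 and 1.95 in UIR and 3.41, 3.30 and 4.83 in UUO (2.74 ± 0.61 and 3.93 ± 0.57). The controls held 13 Ccr6 UMIs, and the UIR call of Ccr6 was lost with the N controls alone. Ccl28 was the exception, at 7.30, 1.95, 1.41, 5.38 and 3.42 CPM in control, 2.57 to 2.88 in UIR and 2.31 to 3.21 in UUO. The Ccl28 values of the injured libraries lay inside the control range, and the edgeR adjusted p was 0.0511 in UIR (log2 change -0.93 ± 0.39) and 0.0425 in UUO (-0.95 ± 0.39). The direction of Ccl28 in UUO turned when the N controls alone were used or when the mitochondrial limit was 15%, with log2 changes of 0.29 and 0.09.

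**Figure D1:**
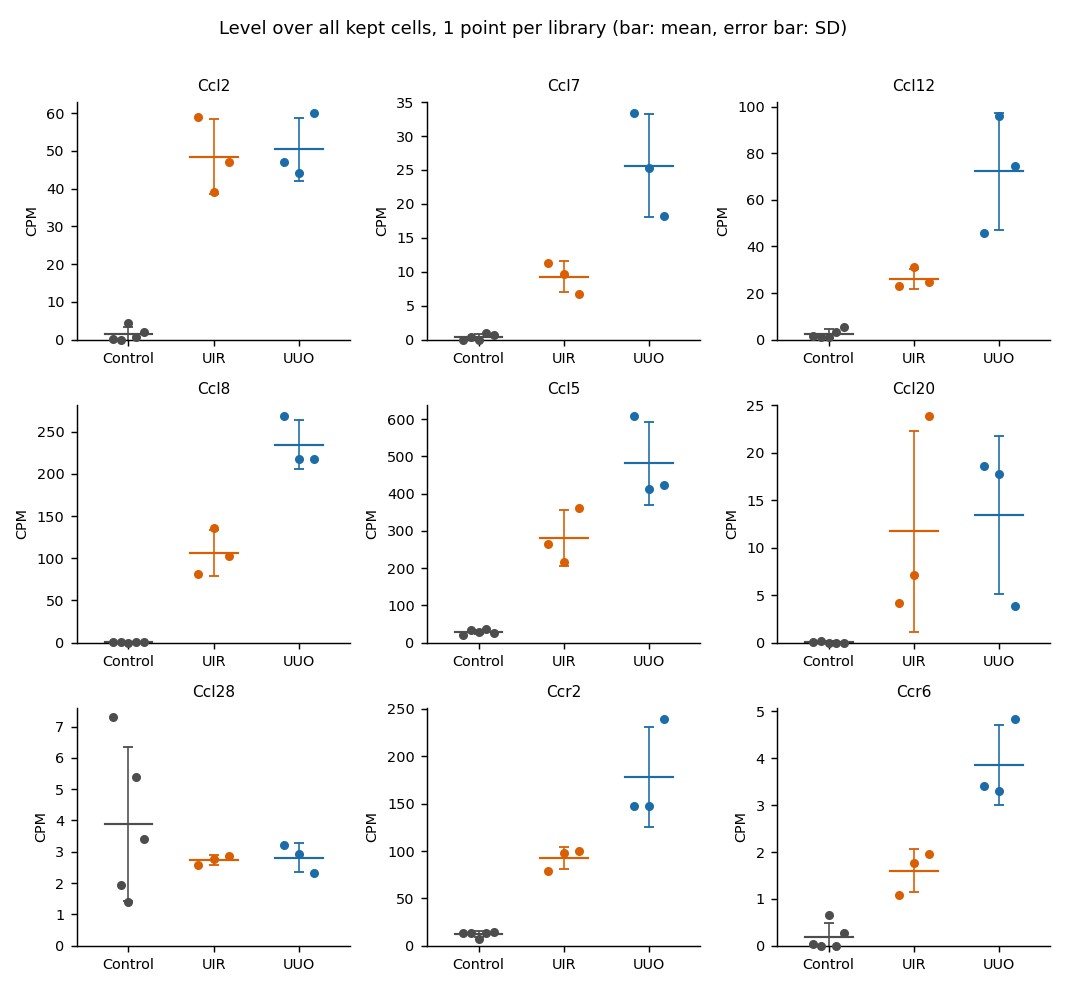
Level of each member over all kept cells, in CPM (y axis), with 1 point per library, the mean as a bar and the SD as an error bar, for control (n = 5), UIR (n = 3) and UUO (n = 3). For Ccl2, Ccl7, Ccl12, Ccl8, Ccl5, Ccl20, Ccr2 and Ccr6 every injured library lies above every control library, while the Ccl28 points of the injured libraries lie within the control range.

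Between the injuries, 5 of the 9 members were higher in UUO than in UIR over all cells, against 26.4% of all genes called in that comparison. The share of immune cells among the kept cells was also higher in UUO, and its part in these differences was not tested. The log2 difference, UUO minus UIR, was 1.41 ± 0.39 for Ccl7, 1.39 ± 0.35 for Ccl12, 1.07 ± 0.26 for Ccl8, 0.88 ± 0.21 for Ccr2 and 0.72 ± 0.23 for Ccl5 (edgeR adjusted p = 0.0168, 0.00988, 0.00873, 0.0082 and 0.0349). With a mitochondrial limit of 15% 1 member was called, with DESeq2 3, and without the unnumbered UUO library 3. The Ccl5 call was lost under 7 of 21 alternatives, those of Ccl7 and Ccl12 under 3, that of Ccl8 under 2 and that of Ccr2 under 1. Those lost without the unnumbered UUO library, where 1 cell held 471 of 988 Ccl7 UMIs, were Ccl7 and Ccl5. Ccl2 (-0.01), Ccl20 (0.15) and Ccl28 (-0.02) showed no difference that passed the test, and neither did Ccr6 (1.19 ± 0.44, adjusted p = 0.065).

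The cells that held the UMIs differed sharply among the members. Macrophages held 95.9% of the Ccl8 UMIs in control, 92.9% in UIR and 97.4% in UUO, and 98.9%, 94.9% and 96.7% of the Ccl12 UMIs. T and NK cells held 84.9%, 75.8% and 77.3% of the Ccl5 UMIs, and migratory dendritic cells a further 8.16% in UIR and 6.98% in UUO. Tubular cells held 99.5% of the Ccl20 UMIs in UIR and 98% in UUO, and 99% of the Ccl28 UMIs in control, 97.8% in UIR and 95% in UUO.

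Ccl2 was split between compartments, and the split differed between the injuries. Tubular cells held 71.7% of the 6254 Ccl2 UMIs in UIR and 32.2% of the 4894 in UUO, while immune cells held 19.3% and 48.7%. Without UUO2 the tubular share in UUO was 20.1%. Of the 94 Ccl2 UMIs in control, 2.13% were in tubular and 40.4% in immune cells, and the immune share was 95% without N2 and 12.7% without AN2. Ccl7 lay mostly in macrophages, with 59.9% of its UMIs in UIR and 73.6% in UUO. These shares pool the libraries of a group and were not tested.

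**Figure D2:**
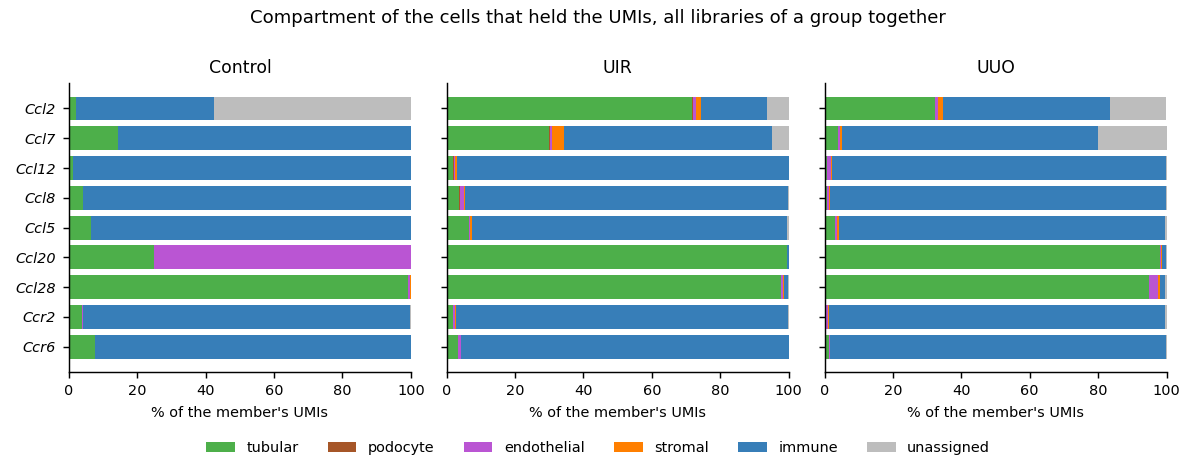
Share of each member's UMIs (x axis, % of the UMIs of that member) held by tubular, podocyte, endothelial, stromal, immune and unassigned cells, with all libraries of a group summed, in control, UIR and UUO. Ccl20 and Ccl28 are tubular in both injuries, Ccl8, Ccl12, Ccl5, Ccr2 and Ccr6 are immune, and Ccl2 is 71.7% tubular in UIR and 32.2% in UUO. The control bars of Ccl20 and Ccr6 rest on 4 and 13 UMIs.

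Within the cell types the calls were fewer. In UIR, 8 of the 26 pairs of a member and a cell type that passed the filter on low counts were called, all higher than control, where 13.7% of all genes were called over the same 8 cell types. In UUO 14 of 26 were called, 13 higher and 1 lower, against 18.4% of all genes. Between UUO and UIR none of the 32 pairs was called by edgeR, against 1.49% of all genes over 11 cell types, while 7 had an unadjusted p under 0.05 and DESeq2 called 0. The 8 cell types were PT, LOH, CD-P, CD-I, endothelium, stroma, macrophages and T/NK cells. A member entered only where enough libraries held it, so these counts describe the members that could be tested. Several pairs with 0 or 1 control UMIs entered only through the injured libraries and so could only be called higher. Among them were Ccl5 in LOH cells, CD-P cells, stroma and endothelium, Ccl8 in endothelium and Ccl20 in CD-P cells. The share of all genes called is therefore no like-for-like comparison for them.

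Macrophages were defined by C1qa, C1qb, C1qc, Csf1r, Adgre1 and Cd68, and numbered 58 to 87 cells in a control library, 674 to 1657 in UIR and 1037 to 2146 in UUO. Of the 6 members tested in them, Ccl8 rose in UIR, and Ccl8, Ccl7, Ccl12 and Ccl2 rose in UUO. The background there was 4.61% of all genes in UIR and 10.2% in UUO. Ccl8 in macrophages was 22.3, 37.2, 0, 44.1 and 66.1 CPM in Ctrl, N1, N2, AN1 and AN2, 1283, 1192 and 862 in UIR, and 2138, 1134 and 984 in UUO. Every injured library lay far above every control, with log2 changes of 4.97 ± 0.38 and 5.27 ± 0.38 (edgeR adjusted p = 3.17e-07 and 7.57e-08).

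The Ccr2 ligands in macrophages were uneven among the controls. Ccl2 was 2.79, 0, 0, 30.9 and 99.2 CPM in control, 70.1, 89.9 and 95.7 in UIR and 111, 167 and 105 in UUO. Ccl7 was 0 in Ctrl, N1 and N2 but 57.4 in AN1 and 36.4 in AN2, against 61.0, 73.5 and 39.2 in UIR and 113, 129 and 77.8 in UUO. Ccl12 was 92.0, 62.1, 64.8, 194 and 274 CPM in control, 366, 282 and 209 in UIR and 361, 499 and 332 in UUO. For each of these ligands the AN libraries were the highest controls, and one of them reached into or above the UIR range, whereas no control reached the UUO libraries. For Ccl12 the overlap with UIR rests on 1 cell of AN2 with 38 of 83 UMIs, without which AN2 was at 149 CPM and no control reached the UIR libraries.

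The log2 changes in UUO were 2.48 ± 0.55 for Ccl7, 1.44 ± 0.34 for Ccl12 and 2.10 ± 0.54 for Ccl2 (edgeR adjusted p = 0.00676, 0.0107 and 0.0165). In UIR they were 1.65, 1.01 and 1.58, with adjusted p of 0.128, 0.108 and 0.12. Against the AN controls alone none of the Ccl2, Ccl7 and Ccl12 calls in UUO passed the threshold, those of Ccl2 and Ccl7 were also lost with DESeq2, and that of Ccl2 without UUO1. Macrophage Ccl5 (0 to 102 CPM in control, 98.4 to 170 in UIR, 56.6 to 198 in UUO) and Ccr2 (212 to 433, 447 to 512 and 336 to 586) did not pass the test in either injury, although the Ccr2 values of UIR lay above all controls (log2 change 0.66 ± 0.20, edgeR adjusted p = 0.0697).

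The share of macrophages with a transcript gave a second view, since it counts cells rather than UMIs. Macrophages under 1000 UMIs were left out, 47 of 357 in control, 1591 of 3748 in UIR and 1868 of 4351 in UUO, and the others were thinned to 1000 UMIs. Of these deeper cells 2.17% held Ccl8 in control, against 26.0% in UIR and 30.1% in UUO (means over 5, 3 and 3 libraries), and without thinning 3.8%, 31.1% and 35.4% of all macrophages did. Ccl12 went from 5.39% to 14.8% and 19.2%, and Ccl2 from 0.843% to 5.3% and 7.29%. For these no injured library overlapped the controls, and the two-sided exact permutation p was 0.0179, the smallest that 5 against 3 libraries allow (adjusted p = 0.0238 over 12 comparisons, of which 9 were called). Ccl7 went from 0.764% to 3.55% in UIR, where the exact permutation p was 0.0536, and to 6.22% in UUO, where it was 0.0179. In cells without thinning, 2.66% of T and NK cells in UIR and 3.67% in UUO held Ccl8, a gene these cells are not known to make, and the source of these UMIs was not tested.

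**Figure D3:**
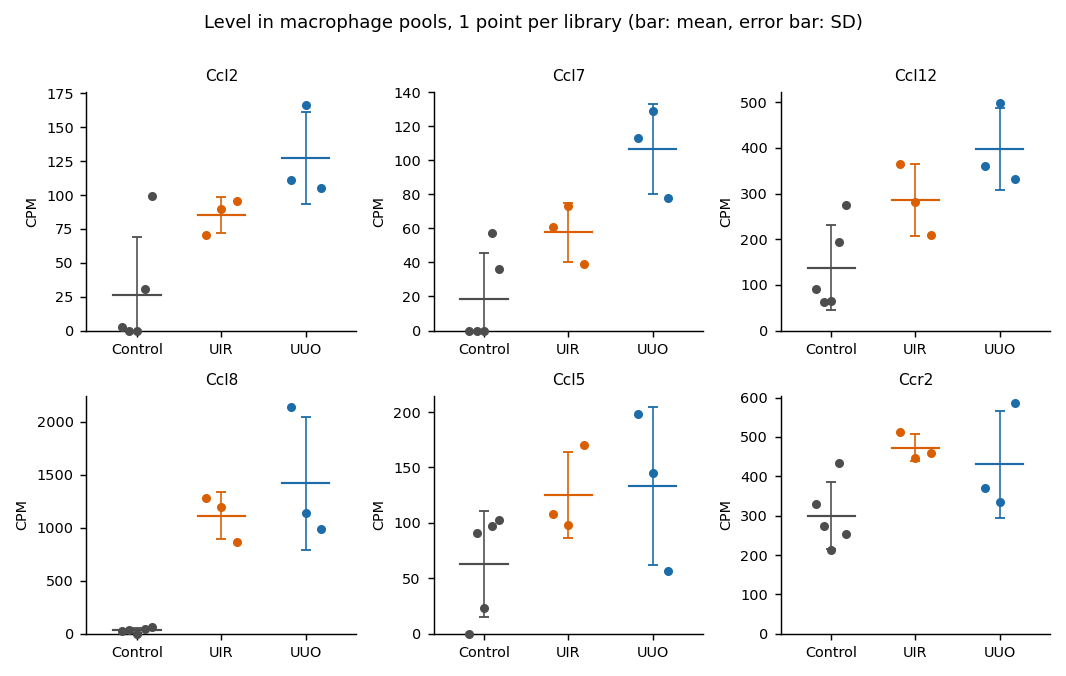
Level of 6 members in macrophages, in CPM of the summed macrophages of a library (y axis), with 1 point per library, the mean as a bar and the SD as an error bar. Ccl8 separates all injured libraries (862 to 2138) from all controls (0 to 66.1), while for Ccl2, Ccl7 and Ccl12 the highest control lies within or above the UIR points.

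The kinds of macrophage differed between the groups, and their part in these differences was tested in only one of the clusters that control and UIR shared. A cluster led by Hpgd and Slamf9 held 67.8% of control macrophages, 4.59% of those in UIR and 0.942% in UUO. One led by Aif1, C1qb, Ms4a7 and Calb1 held 21.0%, 45.9% and 2.3%, and one led by Aif1, Ms4a7, C1qb and C1qc held 1.4%, 7.1% and 45.1%, so that UIR and UUO macrophages also differed in these clusters. Both were shallow, with medians of 733 and 787.5 UMIs, and 1 library held 45.9% and 50.1% of their cells. A deeper cluster led by Mmp12, Ms4a7, Trem2 and C1qb held like shares, 21.6% in UIR and 21.1% in UUO. In the Calb1 cluster, Ccl8 was 5.74 CPM in the 75 control cells, from 1 UMI, and 1047 in the 1720 UIR cells, with the libraries pooled and no test made. The clusters below were picked after their member levels had been seen. Within the Hpgd-Slamf9 cluster, 3 of the 5 members tested in UIR were called, against 1.94% of all genes. Ccl8, with 8 control UMIs there, passed the filter on low counts only through the injured libraries, so only a rise could be called. The share of all genes is no like-for-like comparison for it. Ccl8 there was 20.2, 4.97, 0, 10.8 and 3.92 CPM in control and 203, 35.4 and 386 in UIR (log2 change 4.20 ± 0.57, edgeR adjusted p = 1.03e-06). Ccr2 was 516, 318, 262, 450 and 286 CPM in control and 1107, 559 and 635 in UIR (0.94 ± 0.20, adjusted p = 0.00246), a call lost against the AN controls alone and without the unnumbered UIR library. The Ccl5 call in this cluster (2.92 ± 0.52, adjusted p = 0.000198) was lost with DESeq2, against the AN controls alone and without UIR2, where 1 cell held 93% of the Ccl5 UMIs.

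Some members differed in level between kinds of macrophage in the injured kidneys, and the differences between kinds were not tested. Mrc1-high cells were named by the list Mrc1, Folr2, Lyve1, Cd163, Cbr2 and Pf4. Trem2-high cells were named by the list Trem2, Gpnmb, Spp1, Fabp5, Cd9 and Lpl. Each name stands for its whole list, and an Mrc1-high cluster of 462 cells also had Trem2 among its leading genes. Mrc1-high macrophages, a kind with scavenger receptors, held Ccl8 at 3941, 3775 and 3670 CPM in UIR and 4188, 3234 and 3355 in UUO, but little Ccr2 (192, 171 and 74.1, then 75.4, 23.3 and 156). Trem2-high macrophages, known for lipid-handling genes, held more Ccr2, at 676, 652 and 590 CPM in UIR and 533, 514 and 780 in UUO, with Ccl2 of 60.3, 112 and 118, then 89.4, 166 and 113. The lowest Trem2-high Ccr2 value lay above the highest Mrc1-high value in both injuries. Among Trem2-high cells, with libraries pooled, a cluster led by Retnla and Lyz1 held Ccr2 at 1318 CPM in UIR and 943 in UUO. The cluster led by Mmp12 and Ms4a7 held it at 506 and 539. Ccl2 and Ccl12 overlapped between the kinds, with Ccl2 of 21.6 to 124 CPM in Mrc1-high macrophages of the injured libraries, and Ccl12 of 131 to 524 there and 204 to 354 in Trem2-high ones. Ccl8 in Trem2-high macrophages was 174 to 1302 CPM.

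A cluster led by Ifit2 and Ifit3, which are interferon-induced genes, held Ccl12 at 1186 and 272 CPM in the UIR libraries with enough cells and at 992, 1443 and 1173 in UUO. In the same cluster Ccl2 was 209 and 77.0, then 308, 428 and 237 CPM, and Ccl7 was 121 and 40.8, then 337, 365 and 209. Ccl7 there was called higher in UUO than in UIR (log2 difference 1.84 ± 0.38, edgeR adjusted p = 0.0313), against 0.443% of all genes, but not under 6 of the alternatives. A cluster led by Cxcl9 and Gbp2b held Ccl8 at 2310 and 1100 CPM in UIR and 2404, 2764 and 4492 in UUO. Over all macrophages no member differed between UUO and UIR by the edgeR test, against 1.82% of all genes. The nearest was Ccl7, with a log2 difference of 0.83 ± 0.35 (edgeR adjusted p = 0.582).

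Tubular cells outside the PT were all tubular cells not named PT, so this pool is not distal only. It took in an unnamed cluster led by Ubd and Ptgds, which scored 3.95 on the frTEC list and 3.84 on the PT list. A cluster of dividing cells that scored highest on the PT list (4.82) was also in it. In the unnumbered UIR library the Ubd-Ptgds cluster held 1495 of the 1528 Ccl2 UMIs of the pool. In tubular cells outside the PT, 5 of the 8 members tested rose in UIR (Ccl2, Ccl20, Ccl7, Ccl8 and Ccl28) and 5 of 8 in UUO (Ccl2, Ccl20, Ccl12, Ccl8 and Ccl28). All of these but Ccl28 passed the filter on low counts only through the injured libraries, so for them only a rise could be called. The background was 39.3% of all genes in UIR, 47.9% in UUO and 1.97% between the injuries, where no member was called. Ccl2 in these cells was 0 CPM in Ctrl, N1, N2 and AN1 and 0.346 in AN2, from 1 UMI, and it was 80.3, 49.9 and 62.5 in UIR and 27.8, 20.1 and 102 in UUO. Summed counts per UMI were 891 times those of control in UIR, with a 95% interval of 159.8 to 35199, and 612.5 times in UUO, with one of 109.8 to 24206. These intervals cover counting error only, and the test gave edgeR adjusted p of 7.03e-06 and 1.08e-05. All injured libraries lay far above the controls, and the wider spread of the UUO libraries rests on UUO2, where 693 of 945 Ccl2 UMIs came from 1 cell, without which it was at 27.1 CPM. Ccl8, with no control UMI in these cells, was at least 18.1-fold higher in UIR and at least 23.0-fold higher in UUO, and it entered the test only through the injured libraries. Ccl7 passed the test in UIR, from 4 control UMIs (log2 change 4.05 ± 1.19, adjusted p = 0.0133, against 0.0841 in UUO), and Ccl12 passed it in UUO, from 1 control UMI (ratio 21.4, 95% interval 3.68 to 860.5, adjusted p = 0.0203). DESeq2 gave no p for the Ccl7 call, which was lost at the 15% mitochondrial limit, against the AN or N controls alone and without the unnumbered UIR library, where 1 cell held 114 of 242 UMIs. The Ccl12 call was lost at the 15% limit, against the AN or N controls alone, without Ctrl and without UUO1.

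Most tubular Ccl2 came from a small cluster led by Ubd and Ptgds, which scored about equally on the frTEC and PT lists and was left unnamed. With 2.74% of UIR cells it held 63.6% of the UIR Ccl2 UMIs, and with 1.23% of UUO cells 30.9%, or 18.3% without UUO2. Ccl2 in it was 1111, 284 and 432 CPM in UIR and 274, 156 and 931 in UUO. The values of the injuries overlapped (log2 difference -0.50 ± 0.59, edgeR adjusted p = 0.818). A Ccl2 UMI was found in 22.6% of its UIR cells and 20.1% of its UUO cells, and only 7 control cells fell in this cluster, too few for a level. Ccl7 was next to Ccl2 there, at 179, 10.9 and 16.2 CPM in UIR and 44.7, 8.37 and 9.90 in UUO.

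Some of the Ccl2 lay in very few cells. In the PT of the unnumbered UIR library 248 of 262 Ccl2 UMIs came from 1 cell, and without it the level was 3.26 CPM. In a cluster led by Wnt16 and Ncam1, left unnamed, which held 15.6% of the UUO Ccl2 UMIs and 19.7% of the UUO Ccl7 UMIs, 1 cell of the unnumbered UUO library held 641 of 645 Ccl2 UMIs and 471 of 489 Ccl7 UMIs, and without that library the shares were 3.37% and 0.522%. That cell alone made up 46.1% of the Ccl2 of its library, and 1 cell of UUO2 made up 39.3%.

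Ccl20 in tubular cells outside the PT was 0.485 CPM in N1 and 0 in the other controls, from 1 UMI, against 7.51, 14.8 and 48.4 in UIR and 48.1, 43.8 and 11.5 in UUO. Summed counts were 349.7 times those of control in UIR (62.7 to 13821) and 520.2 times in UUO (93.2 to 20564), with the same kind of interval (edgeR adjusted p = 0.000491 and 0.000121). Ccl20 passed the filter on low counts there only through the injured libraries. The UIR call was lost with the AN or N controls alone. All injured libraries lay above all controls, while UIR and UUO overlapped. Of the Ccl20 UMIs in UIR, CD-I cells held 17.4% and LOH cells 11.8%. In the LOH of UIR1 141 of 185 came from 1 cell, and the LOH share was 0.842% without UIR1 and 38.8% without UIR2.

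A cluster led by Psca and Mmp7 held 62.7% of the UIR and 60.3% of the UUO Ccl20 UMIs in 1.72% and 2.84% of the cells. The UIR share was 30.1% without UIR2, where 606 of 890 Ccl20 UMIs of the cluster came from 1 cell. None of the 10275 control cells, pooled over 5 libraries, fell in it, which by counting error alone allows a share of up to 0.0292%. The cluster scored highest on the LOH and frTEC lists, too close together to be named. Ccl20 in it was 25.5, 39.2 and 335 CPM in UIR and 63.8, 168 and 42.6 in UUO, and 7.53% and 5% of its cells held a UMI. In CD-P cells, the principal cells that take up water in the collecting duct, Ccl20 was 0 in all 5 controls, 28.6, 5.32 and 10.7 CPM in UIR and 150, 35.2 and 9.34 in UUO. Against the limit that a count of 0 allows (3 UMIs over the control group), the pooled level was at least 22.0-fold higher in UIR and at least 87.8-fold higher in UUO, and edgeR called UUO (adjusted p = 0.0013) but not UIR (0.0653), although Ccl20 passed the filter on low counts there only through the injured libraries. The bounds were 12.5-fold without the unnumbered UIR library and 38.2-fold without the unnumbered UUO library, where 220 of 326 UMIs came from 1 cell. The UUO call was lost at the 15% mitochondrial limit and with the N controls alone.

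The part of CD-P cells in a cluster led by Sprr2f and Lcn2, both genes of injured epithelium, was 0% in control, 42.8% in UIR and 79.5% in UUO, and Ccl20 in that cluster was 47.5, 15.2 and 17.3 CPM in UIR and 179, 52.1 and 9.72 in UUO. The background in CD-P cells was 20.8% of all genes in UIR and 37.4% in UUO. None of the 407 control CD-P cells, pooled over 5 libraries, held Ccl20, which by counting error alone allows up to 0.737% of cells with a UMI and sets no limit on cells that express it. After thinning, 0.738% of CD-P cells in UIR and 2.43% in UUO held it, against 0% in control (two-sided exact permutation p = 0.0179, adjusted p = 0.0238). CD-P was taken as the named cell type with the highest mean Ccl20 level over all libraries. With 0% in control that choice rests on the injured libraries, so this p is not independent of it. Ccl20 was held by 17 to 45 cells in each injured library, and the 3 highest cells of a library held 55.6% to 82.3% of its Ccl20 UMIs. Macrophages, taken as cells that should lack Ccl20, held a Ccl20 UMI in 0.08% of cells in UIR and 0.0919% in UUO.

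Ccl28, which did not rise over all cells, rose in tubular cells outside the PT. It was 0.891, 1.46, 2.63, 1.67 and 2.08 CPM in the controls, 3.36, 4.50 and 5.46 in UIR and 7.91, 7.13 and 6.67 in UUO. Values of the 3 groups did not overlap, with log2 changes of 1.18 ± 0.31 in UIR and 1.85 ± 0.30 in UUO (edgeR adjusted p = 0.00646 and 0.000134), while the difference between the injuries (0.67) did not pass the test (adjusted p = 0.196). The UIR call was lost at the 15% mitochondrial limit and against the AN or N controls alone. The make-up of these cells differed, with 469 of 1575 in control being DT cells, 96 of 4666 in UIR and 14 of 2295 in UUO, and the part of that difference in the Ccl28 values was not tested. In control the PT held 91.8% of the Ccl28 UMIs, in UIR 15.6%, when LOH cells held 49.3% and 26.6% of the Ccl28 UMIs in UIR and UUO. PT cells numbered 6975 in control, 2684 in UIR and 202 in UUO. Within the PT Ccl28 was 11, 2.51, 1.08, 7.28 and 4.51 CPM in control, 5.35, 3.41 and 1.70 in UIR and 2.29, 0 and 0 in UUO, and the edgeR adjusted p was 0.445 and 0.325. Within the LOH it was 0, 0, 2.69, 8.32 and 13.9 CPM in control, 6.94 to 9.93 in UIR and 11.8 to 13.8 in UUO (adjusted p = 0.474 and 0.149). The LOH cells lay in different clusters by group. One led by Egf and Wfdc15b held 94.4% of them in control, 7.09% in UIR and 0.873% in UUO, and the part of this in the Ccl28 values was not tested.

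**Figure D4:**
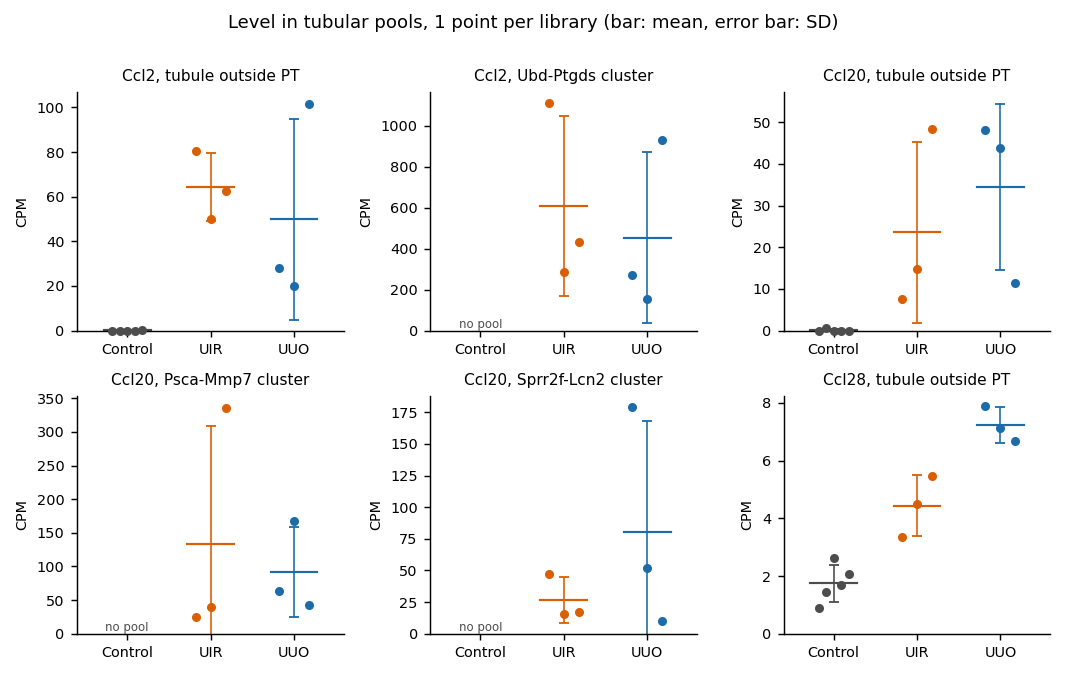
Level of Ccl2, Ccl20 and Ccl28 in tubular cells outside the PT and in 3 tubular clusters (y axis, CPM), with 1 point per library, the mean as a bar and the SD as an error bar, whose lower end stops at 0 where the SD is larger than the mean. The Ccl28 points rise in 3 separate bands from control (0.891 to 2.63) to UUO (6.67 to 7.91), whereas the Ccl2 and Ccl20 points are near 0 in control and widely spread in both injuries. Clusters marked as having no pool had under 20 control cells in every library.

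Ccl5 was mainly a lymphocyte transcript in all groups. In T and NK cells it was 3499, 2189, 4411, 4040 and 2339 CPM in control, 4512, 3107 and 3819 in UIR and 4986, 5054 and 4776 in UUO. All UUO libraries lay above all controls, but the log2 change of 0.63 ± 0.18 gave an edgeR adjusted p of 0.0561, and that in UIR (0.31 ± 0.18) one of 0.652. The background in T and NK cells was 0.635% of all genes in UIR and 2.36% in UUO, and none of the 4 members tested there was among them. NK cells were 53 of the 120 cells of this class in control, 178 of 1954 in UIR and 139 of 1497 in UUO, and the part of that difference in the Ccl5 values was not tested. After thinning, 52.7% of these cells held Ccl5 in control, 61.1% in UIR and 63.3% in UUO (two-sided exact permutation p = 0.0179 in each injury, adjusted p = 0.0292), a comparison chosen after the data had been seen.

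CD8 T cells held Ccl5 at 12926, 6646 and 7429 CPM in UIR and 10798, 7939 and 8685 in UUO, and did not differ between the injuries by the test (log2 difference -0.04). NK cells held it at 5239, 4078 and 4151 in UIR and 10394, 9733 and 7579 in UUO. There the groups did not overlap, and the difference of 1.02 ± 0.17 was called (edgeR adjusted p = 0.00092), against 0.527% of all genes, but not without UIR1 or without UIR2. The NK cells joined a Klra7-Klra1 cluster (137 cells in UIR, 69 in UUO) and a Gzma-Klra4 cluster (41 and 70). With libraries pooled, Ccl5 in UUO was 6403.5 CPM in the first and 13335 in the second. In UIR it was 3625 in the first. The part of this make-up in the NK difference was not tested. Migratory dendritic cells reached the range of CD8 T and NK cells, at 4771 and 10098 CPM in UIR and 8031 and 5303 in UUO. Type 2 conventional dendritic cells (cDC2) held far less, at 173, 207 and 258, then 290, 310 and 308 CPM, and in UUO2 1 cell held 202 of 303 UMIs, without which it was at 103. The Psca-Mmp7 cluster ran the other way from NK cells, with Ccl5 of 34.2, 35.8 and 89.3 CPM in UIR and 11.6, 4.07 and 8.74 in UUO (log2 difference -2.71 ± 0.41, edgeR adjusted p = 0.0116), against 0.24% of all genes. That call was lost without UUO1 and without UUO2. In UIR 3 cells of each library held 85.3%, 90.6% and 94.1% of these Ccl5 UMIs, and without the highest cell of each the levels ran from 16.4 to 44.1 CPM.

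Ccr2 was carried by several kinds of myeloid cell. Monocytes, which are drawn into tissue through this receptor, held 1286 CPM in the UIR library with enough cells and 1175, 1219 and 1909 in UUO. Type 1 conventional dendritic cells held 683, 615 and 586 CPM in UIR and 651, 523 and 750 in UUO, and cDC2 held 692, 615 and 475, then 620, 545 and 629. Neither type of dendritic cell differed between the injuries by the test. Macrophages held 42.5% of the Ccr2 UMIs in control, 47.1% in UIR and 43.8% in UUO, although their level in CPM lay below that of monocytes. T and NK cells held 321, 360, 120, 159 and 165 CPM in control, 141 to 155 in UIR and 151 to 298 in UUO, with the values of the groups overlapping. Of the cells that matched IL-17-producing and gamma-delta T cells, 83.9% of 31 in UIR and 97.2% of 36 in UUO held a Ccr2 UMI.

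Ccr6 was found in few cells and mainly in lymphocytes. B cells held it at 18.8 CPM in the UIR library with enough cells and at 85.9, 76.5 and 87.4 in UUO. T and NK cells held 80.0 CPM in control N2 and 0 in the other controls, 18.4, 32.3 and 21.5 in UIR and 22.7, 32.6 and 39.5 in UUO, and neither injury was called (edgeR adjusted p = 0.661 and 0.335). Within them, a Foxp3-Ctla4 cluster with the genes of regulatory T cells held 42.9, 69.0 and 66.4 CPM in UIR and 58.1, 86.5 and 84.6 in UUO, and a Cd4-Icos cluster held 145 and 89.2, then 79.6 and 105. Of the IL-17-producing and gamma-delta cells 41.9% in UIR and 44.4% in UUO held a Ccr6 UMI. In cDC2 the Ccr6 values were 2.36, 1.49 and 1.58 CPM in UIR and 7.01, 7.45 and 10.2 in UUO, which did not overlap but were too low for the filter.

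**Figure D5:**
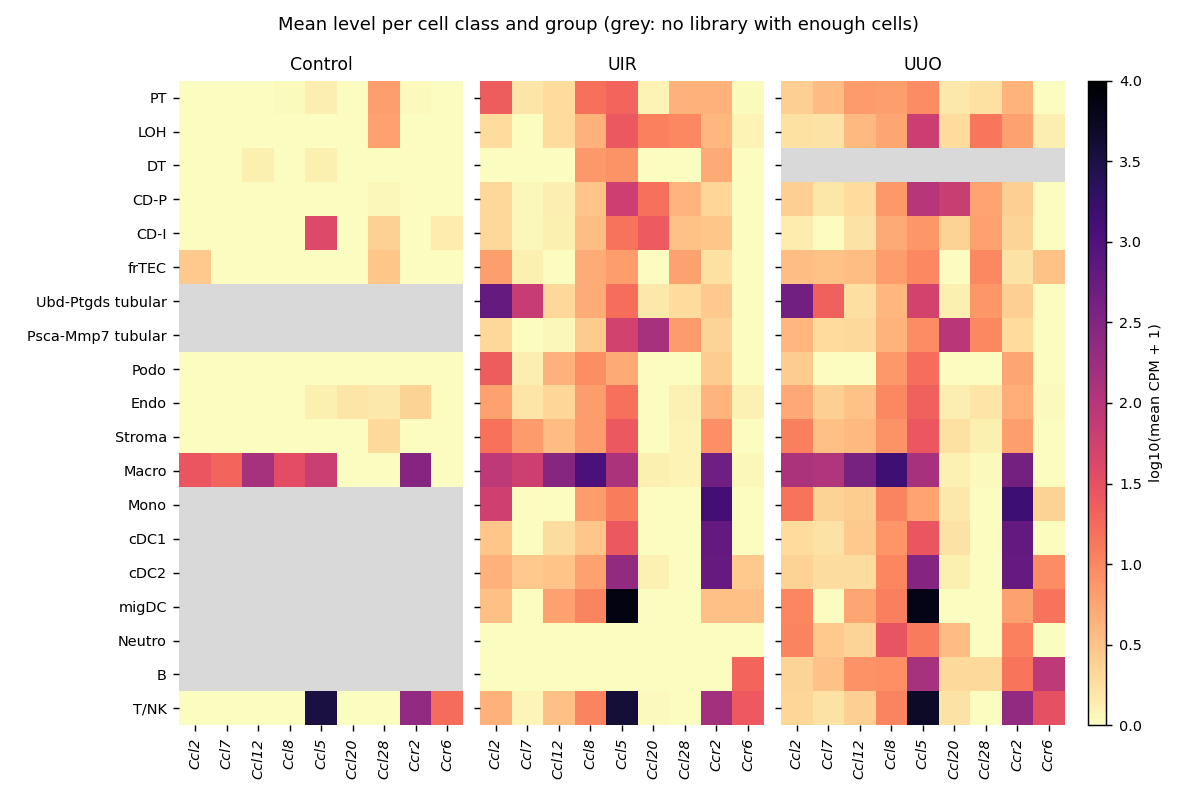
Mean level of each member (columns) in each cell type or cluster (rows), as log10(mean CPM + 1), in control, UIR and UUO, with grey where no library of the group had 20 cells. Ccl5 is darkest in T/NK cells and migratory dendritic cells, Ccl8 in macrophages, and Ccr2 in monocytes, dendritic cells and macrophages. In both injuries Ccl20 is darkest in the Psca-Mmp7 row, followed by CD-I in UIR and CD-P in UUO. The control CD-I square of Ccl5 rests on 1 cell.

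Low levels were also called outside the cells that held most of a member's UMIs. In the PT 4 of the 5 members tested were called in UIR (Ccl2, Ccl5, Ccl8 and Ccr2), against 15.6% of all genes, and 3 of 5 in UUO (Ccl5, Ccl8 and Ccr2), against 9.14%. Tubular cells of all kinds held only 4.08% of the 49 control Ccl8 UMIs. Ccl2 and Ccl8 passed the filter on low counts in the PT only through the injured libraries, so for them only a rise could be called. The share of all genes is no like-for-like comparison for these 2 members. The PT call of Ccl2, from 1 control UMI, includes the library in which 1 cell held 248 of 262 UMIs, without which the call was kept and the fitted log2 change, which is no bound, went from 8.99 to 5.86. DESeq2 gave no p for it. In UUO the PT call of Ccl8 was lost under 7 of 22 alternatives, that of Ccl5 at the 15% mitochondrial limit and without the unnumbered UUO library or UUO2, and that of Ccr2 without UUO2. The Ccr2 log2 change in the PT was 5.15 ± 0.60 in UIR and 5.04 ± 1.16 in UUO. In endothelium Ccl5 and Ccl8 were called in both injuries, against 2.07% of all genes in UIR and 12.5% in UUO, but with 1 and 0 control UMIs they passed the filter on low counts only through the injured libraries. With the AN or N controls alone the endothelial Ccl5 calls were lost in both injuries and that of Ccl8 in UIR. In LOH cells Ccl5 had 0 UMIs in control and 14.7 to 114 CPM in UUO, so it too passed the filter only through the injured libraries. Its call in UUO, against 31.3% of all genes, was lost with the AN or N controls alone. In the LOH 3 cells held 82.1% of the Ccl5 UMIs of the unnumbered UUO library and 40.5% of those of UUO1. The LOH cells of control and UUO also lay mostly in different clusters, and the part of this in the call was not tested. In stroma none of 3 was called in UIR, against 14.8% of all genes (Ccl5, with the smallest edgeR adjusted p, had 0.0509), and Ccl5 alone was called in UUO (adjusted p = 0.042), against 17.8%. With 0 control UMIs it also entered only through the injured libraries. That call was lost under 13 of 22 alternatives, and in the stroma of UUO1 94 of 108 Ccl5 UMIs came from 1 cell. In CD-P cells Ccl5, also with 0 control UMIs, was called in both injuries (adjusted p = 0.0484 and 0.0128), and the UIR call was lost under 12 alternatives and the UUO call under 4. There 3 cells held 90.3% of the Ccl5 UMIs of the unnumbered UIR library and 86.5% of those of UIR2. In the unnumbered UUO library 3 CD-P cells held 92.4%, with 282 of 590 UMIs from 1 cell. In CD-I cells Ccl5 was the single member called lower in UUO (log2 change -2.96 ± 1.10, adjusted p = 0.0492), against 27.4% of all genes. That fall rests on 102 UMIs of 1 cell in control N1. Without N1 no control held a UMI and the direction turned, so the fitted log2 change there is no measure of size.

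The RNA free in droplets was richer in the same members after injury. In droplets without a cell Ccl8 was 0.124 to 8.67 CPM in control, 61.9 to 95.3 in UIR and 147 to 190 in UUO, and Ccl5 was 1.77 to 10.4, 76.3 to 148 and 172 to 422. Ccr2 there was 0.783 to 2.76, 26.4 to 48.9 and 70.1 to 124 CPM. Endothelial Ccl8, at 5.15, 6.26 and 5.24 CPM in UIR and 10.3, 8.38 and 8.18 in UUO, was 5.5% to 10.1% and 4.57% to 5.71% of the free level of its library. PT Ccr2 was 3.8% to 18.2% of it in UIR and 2.54% to 4.81% in UUO. Ccl8 in LOH, CD-P and CD-I cells was 1.2% to 9.82% of it in UIR and 0.434% to 6.06% in UUO. By the markers of other cell types, with the smallest estimate over their lists taken, free RNA was put at 4.68% to 10.2% of the UMIs of the PT in UIR and 0% to 1.84% in UUO. It was 0% in the PT of UUO1 and UUO2, so nothing was subtracted there. In endothelium the free share was 3.85% to 12.7% in UIR and 1.91% to 4.08% in UUO, and in tubular cells outside the PT 4.76% to 6.29% and 2.35% to 3.84%. With the free RNA subtracted, 5 pairs of a member and a cell type were called in UIR in place of 8 and 10 in UUO in place of 14. Ccl5 in endothelium and in CD-P cells was no longer called in UIR, nor Ccl8 in the PT and Ccl5 in stroma in UUO. Ccl2 in the PT, Ccl5 in CD-I cells and endothelial Ccl8 then did not pass the filter on low counts and were not tested, while Ccr2 in macrophages passed the test in UIR (edgeR adjusted p = 0.026). With 15% in place of 7.5% of barcodes left out as doublet-like, the calls of Ccl8 in the PT in UUO, Ccl5 in CD-P cells in UIR and Ccl5 in stroma in UUO were lost, and the other calls in PT, LOH, CD-P, CD-I and endothelial cells were kept.

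The rest of the family gives the setting. Of 26 other CC ligands and receptors 23 had a single entry, and of these 21 could be tested over all cells. In UIR 12 rose and 1 fell, with a median log2 change of 2.13 beside 0.05 for all genes, and in UUO 19 rose and 1 fell (median 3.19 beside 0.08). The one that fell in each was Ccl25, a ligand of epithelia and thymus. In UUO 7 were higher than in UIR. Over the same cells 61.8% of all genes were called in UIR, 71.4% in UUO and 26.4% between the injuries.

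In macrophages 11 others were tested. Ccl6 and Ccl9, a pair of related macrophage ligands, rose in both injuries, Ccl6 from a mean of 277 CPM in control to 560 in UIR and 667 in UUO and Ccl9 from 125 to 317 and 292. Ccl4, an inflammatory ligand of macrophages and lymphocytes, fell from 120 to 59.6 and 70.1, opposite in direction to Ccl8. Ccr1 rose in UUO, and Ccl24 and Ccr1 were higher in UUO than in UIR (log2 differences of 3.75 and 1.36). In T and NK cells Ccl3 was called lower in UIR (log2 change -3.75, edgeR adjusted p = 0.0167), but the control mean rests on Ctrl, at 1457 CPM. The other controls, at 0, 26.7, 0 and 26.0 CPM, overlapped the UIR libraries (34.2, 5.95 and 27.8). In PT cells Ccl6 and Ccl9 were called higher in both injuries, against 15.6% of all genes in UIR and 9.14% in UUO. Ccl6 there had 5 control UMIs, with 1.40, 4.32 and 1.48 CPM in UIR and 2.29, 3.58 and 16.4 in UUO. It passed the filter on low counts only through the injured libraries. In the other tubular cells Ccl9 and Ccl17 rose and Ccl25 fell. In endothelium Ccrl2 fell in UUO (-0.84), and in cDC2 Ccr1 was higher in UUO than in UIR (0.78).

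The genes most like a member over 44 points of a cell type in a group were found by Pearson's r of the mean log2(CPM + 1). These points share libraries and depth, and r is given as a description. The unnamed Ubd-Ptgds and Psca-Mmp7 clusters are not among the points. They held most of the Ccl2 UMIs in UIR and most of the Ccl20 UMIs in both injuries, so r for these members leaves those cells out. Ccl7 was most like Ccl12 (r = 0.919), and Ccl12 most like Ms4a14 (0.931), then Pla2g2d and Ccl7. Ccl8 was most like C1qc (0.903), Ms4a7 and C1qa, and Ccl2 like Trem2 (0.914), Ccl8 and Ms4a7. Ccl5 was most like Il2ra (0.919), Gbp8 and Il7r. Ccl20 was most like Sftpd (0.903), Mfi2 and Sprr2f, and Ccl28 like Sema3c (0.915), Gm15406 and Ovol1. Ccr6 was most like Il9r (0.882), Blk and Gm37065.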

How the data were processed

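Single-cell suspensions of mouse kidney were profiled in 11 libraries on the 10x platform. The authors deposited raw UMI counts per gene and barcode, with the empty droplets left in, made with Cell Ranger 3.1.0 on mm10 (GRCm38), as the file headers and the submitters' processing notes give. The study's removal of ambient RNA and doublets is not in these counts. The members and the lists were chosen with earlier results of these data known.

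Cells were called per library by a UMI cutoff (0.1 of the 99th percentile among the 3000 largest barcodes) or, from 500 UMIs, by a profile that differed from empty droplets (barcode ranks 45000 to 90000, false discovery rate 0.01, 10000 simulations). Barcodes over 30% mitochondrial or 5% hemoglobin UMIs or under 200 genes, and the 7.5% most doublet-like, were left out. Cells were clustered (scanpy 1.11.5, 2000 variable genes without the members and markers, 40 components, 20 neighbors, resolution 1, then within compartments with 30 components) into 77 clusters. A cluster was named by its markers, with limits set after the marker tables had been seen. T and NK cells form one class.

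UMIs were summed per library and class where at least 20 cells were present, and tested with edgeR 4.0.16 in R 4.3.3 (filterByExpr, TMM, quasi-likelihood test, the 3 groups in one model, adjusted p under 0.05 over all genes tested). A contrast needed 2 libraries in each group. Where control held no UMI, the fold is a bound against 3 counts over the group, and with 1 to 3 UMIs it is a ratio with an exact 95% interval. Intervals and bounds cover counting error only. Shares of cells with a UMI were thinned to 1000 UMIs and compared between libraries by a two-sided exact permutation test. On simulated counts with 200 genes changed by 4-fold (UIR against control), the edgeR step recovered 163 in macrophages with 9 false calls among 9800 genes, 151 in T and NK cells with 11 among 9668, and 196 in tubular cells outside the PT with 10 among 13667. Levels in CPM refer to all UMIs of the summed cells. The genes named are every member, the other CC ligands and receptors with an adjusted p under 0.05 in a class (up to 5 per class), and the 3 genes most like each member of at least 50 UMIs. Symbols on more than 1 row of the gene table were left out. The genes most like Ccr2 are not reported here. Reads shared by near-identical genes of the cluster on chromosome 11 could be assigned to either. Alternatives included DESeq2 1.42.0, other filters, the control sets on their own and leaving out each library. The numbers 1 and 2 of UIR and UUO libraries are not stated to mark pairs.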

Additional observations from a re-analysis of the deposited data

Results flagged for a closer look

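Among 22 sets of 5 control values, 3 held a library far from the rest, where chance gives about 1 in 20. Over all kept cells Ccr2 was lowest in control N2, at 7.38 CPM, with the next control at 13.5. In T and NK cells Ccr6 was 80.0 CPM in control N2 and 0 in the other controls. In CD-I cells Ccl5 was 195 CPM in control N1, all from 1 cell, and 0 in the other controls. In these last 2 sets a single library held every UMI, which by itself makes it stand apart, so that rate does not apply to them.

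The injuries differed by an edgeR test of the difference itself, given as log2 of UUO over UIR. Over all kept cells this was 0.88 for Ccr2 (edgeR adjusted p = 0.0082), 1.41 for Ccl7 (0.0168), 1.39 for Ccl12 (0.00988), 1.07 for Ccl8 (0.00873) and 0.72 for Ccl5 (0.0349), each higher in 3 of 3 UUO libraries than in any UIR library. In smaller sets of cells it was 1.02 for Ccl5 in NK cells (0.00092), whose clusters differed in share between the injuries. It was -2.71 for Ccl5 in the Psca-Mmp7 cluster (0.0116) and 1.84 for Ccl7 in the Ifit2-Ifit3 macrophages (0.0313). Within macrophages as a whole, which held most of the Ccl7, Ccl8 and Ccl12, none of the members passed the same test.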

How the results depend on the processing

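The counts of members called in cell types moved with the low-count filter and with the controls used. In UIR the 8 calls became 34 without the filter, 5 with free RNA subtracted, and 7 to 13 when 1 library was left out (13 without UUO 2). In UUO the 14 calls became 32 without the filter, 6 at a mitochondrial limit of 15%, 6 with the AN controls alone, 9 with the N controls alone, and 9 to 16 when 1 library was left out (9 without the unnumbered UUO library). Between the injuries the 0 calls became 7 without the filter and 0 to 1 when 1 library was left out. Over all cells the 8 calls in UIR and 9 in UUO stayed at 8 to 9 with 1 library left out, and the 5 between the injuries became 3 with DESeq2, 1 at a mitochondrial limit of 15% and 3 to 6 with 1 library left out. The 16 calls of other CC genes in cell types became 45 without the filter, 9 with the AN controls alone and 12 to 22 with 1 library left out. The 9 share calls became 11 with the classes chosen after seeing the data and 0 to 10 with 1 library left out, 0 without any UUO library and 5 without any UIR library, since fewer libraries raise the smallest p an exact test allows. The cause of the other changes was not tested.

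For the numbered libraries, the replicate block gave 6 calls between the injuries in cell types and 5 over all cells, against 2 and 5 for the same 4 libraries without a block, and the crossed pairing, added after seeing the data, gave 8 and 6. Differences between numbers 1 and 2 correlated at r = -0.15 between UIR and UUO over 14932 genes, so the numbers were not taken as pairs.

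Of 1256 alternatives to 60 single calls, 1138 kept direction and side of the threshold, 114 fell short of it and 4 turned, and 29 calls were never lost. The 4 were Ccl28 over all cells in UUO and Ccl5 in CD-I cells in UUO. The Ccl28 log2 change was 0.094 at a mitochondrial limit of 15% and 0.29 with the N controls alone. For Ccl5 the fit gave 6.88 with the AN controls alone, 6.65 without control N1, and -3.46 to 6.65 over all libraries left out. With the AN controls alone and without N1, no control CD-I cell held a Ccl5 UMI. The values 6.88 and 6.65 therefore give a direction only and are neither a fold nor a bound. Subtraction of free RNA over all cells was not run. A level of 1 to 4 control UMIs, as for Ccl20, limits every fold against control.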
